A study of Mus musculus with 3 samples.

Results

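The genes of BMP and TGF-beta signalling were examined in ureteric bud cells of the mouse embryo. The set was defined by symbol as 54 ligands, extracellular regulators, receptors, Smad proteins, Id genes and Smurf ligases. Of these, 53 were measured by a probe set that names 1 gene, out of 19938 named genes in all. Gdf15 is not analysed here. The samples form 1 group of 3 arrays, ureteric tip cells of CD-1 embryos at 10.5 days post coitum (Theiler stage 18) that carry the transgene Tg(Hoxb7-EGFP)33Cos. Its Hoxb7 promoter makes the nephric duct and the bud growing out of it fluoresce green, which allows these cells to be sorted. Each array held the sorted cells of 1 bud, without pooling, after microdissection and trypsin. The RNA went through 1 round of amplification. The sex of the embryos is given as unknown, and nothing states that the buds came from separate embryos, so each SD measures only the spread between these samples. The p-values rest on that spread, on the spread of the background levels and on a prior SD that limma draws from all genes. For members with identical values on all arrays the first of these is absent. With no second condition, the questions open to the data are which members lay above background and how the buds differed.

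Ligands of this superfamily are secreted dimers that bring together type I and type II serine/threonine kinase receptors at the cell surface. The type I receptor then phosphorylates receptor Smads, those of the BMP branch being Smad1, Smad5 and Smad9 and those of the TGF-beta and activin branch Smad2 and Smad3, and these enter the nucleus with the shared partner Smad4. Antagonists such as noggin, chordin and gremlin bind BMPs outside the cell. In the mouse kidney BMP signalling restrains budding from the nephric duct, and its relief by gremlin from the surrounding mesenchyme is needed for the bud to grow.

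Values are log2 signals, 1 per probe set and array, and the number of arrays limits their precision. Olfactory receptors, genes not known to act in the bud, set the background: 95% of their probe sets lie below a level of 5.40, 5.45 and 5.41 log2 on arrays 1, 2 and 3, and a gene was called above background when limma's moderated one-sided test gave an adjusted p under 0.05. Signals of different probe sets are not compared with each other. Markers of the bud were above background in 18 of 18, among them the receptor genes Ret (8.69, 8.35 and 8.18 log2 on arrays 1 to 3) and Gfra1 (8.58, 8.22 and 7.85 log2), Wnt11 (6.05 log2 on every array) and Etv4 (6.76, 6.37 and 5.54 log2). The values of Wnt11 were also held by 56 other probe sets, and the call of Etv4 was lost without array 2 (limma, adjusted p = 0.217). With the 99th percentile of olfactory receptors as background, Wnt11, Etv4, Pax8 and Wnt9b were not called. The sort for green fluorescence should leave out cells of other types, yet some of their markers were also above background. The counts that follow are to be read against the 53.0% of all named genes that were called. For metanephric mesenchyme these were 3 of 9, Cited1, Wt1 and Sall1 (1.60, 0.18 and 0.68 log2 above the level), but not Six2, Gdnf, Eya1 or Osr1. For stroma they were 3 of 8, Col1a1, Col3a1 and Col1a2 (1.02, 0.60 and 0.94 log2 above it), but not Foxd1, Tcf21, Pdgfra or Pdgfrb. For leukocytes they were 3 of 6, Cx3cr1, Cd68 and C1qc (0.79, 0.89 and 0.22 log2 above it), but not Csf1r, Ptprc or Adgre1. Most of the called markers in these lists were named after their values were seen. The calls of Wt1, C1qc and the erythroid marker Alas2 were lost without array 1 and without array 3. The values of Wt1 were also held by 90 other probe sets. Of erythroid markers 3 of 5 were called, including Hba-x (7.98, 5.87 and 7.39 log2) and Alas2 (5.64 log2 on every array) but not Hbb-y (8.86, 5.48 and 8.52 log2) or Hbb-bh1 (6.32, 4.42 and 5.32 log2). Of endothelial markers 9 of 12 were called, including Pecam1 (6.32, 5.86 and 6.62 log2), Cdh5 (8.22, 5.89 and 8.07 log2), Tek (6.69, 5.67 and 7.34 log2) and Emcn (8.37, 6.73 and 9.55 log2). All 12 endothelial markers were lowest on array 2, where their average was 5.82 log2, compared with 6.52 on array 1 and 6.84 on array 3. Erythroid markers averaged 6.93, 5.45 and 6.54 log2 on arrays 1 to 3, also lowest on array 2. Bud markers averaged 8.24, 7.97 and 7.80 log2 and were highest on array 1 in 13 of 18. In RNA from many sorted cells at once, fewer cells of a type and less RNA per cell cannot be told apart.

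Of the 53 members, 38 lay above background, or 71.7%, where the same call held for 53.0% of all named genes. The median of mean signal minus background was 0.68 log2 over members and 0.22 log2 over all named genes. Inside the cell, 8 of 8 Smads, 4 of 4 Id genes and 2 of 2 Smurf ligases were called, and at the cell surface 10 of 12 receptors. Of the ligands of the BMP and GDF families 8 of 13 were called, of the protease Bmp1 and the antagonists 4 of 8, and of the activin, inhibin and TGF-beta ligands 2 of 6. Differences between these shares were not tested. Without array 2 the member count was again 38, with 52.8% of all named genes called, but Gdf10 gained a call and Acvr1b lost one. The member count was 32 without array 1, where 48.5% of all named genes were called, and 32 without array 3, where 48.8% were. In these 2 settings limma gave every gene 1 pooled SD of 0.18 log2, where the prior SD with all arrays was 0.05 log2. For genes whose values differ between arrays, the change of SD and the array left out cannot be told apart in these losses. Bmp8b, Gdf3, Tgfb2 and Smad6, lost in both settings, held 1 value on every array. For them only the background level, the SD and the number of arrays in the test changed. They lay 0.15, 0.22, 0.18 and 0.18 log2 above background with all arrays. Without array 1, and likewise without array 3, these were 0.14, 0.21, 0.17 and 0.17 log2.

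**Figure D1:**
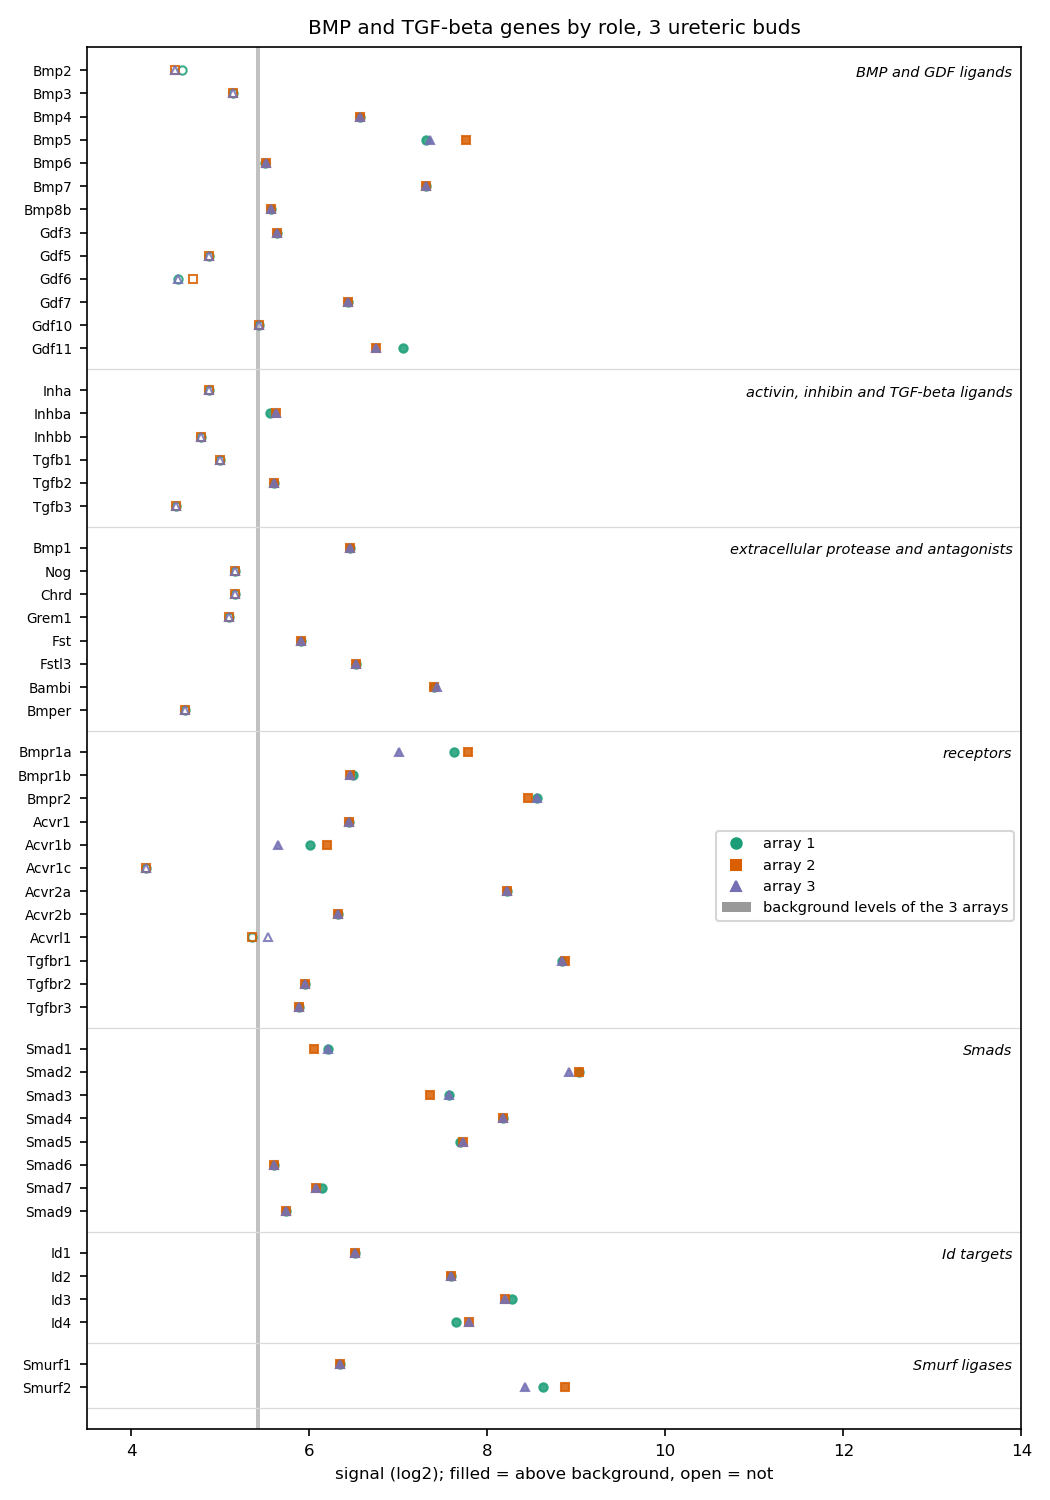
Signal (log2, horizontal axis) of each measured member on arrays 1 to 3, grouped by role. Filled symbols are genes above background, open symbols genes that are not, and the grey band spans the background levels of 5.40 to 5.45 log2. All 8 Smads and 4 Id genes lie to the right of the band.

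Many members carry values without a measured spread. The deposited value was identical on all 3 arrays for 32 of 53 members (60.4%) and for 51.7% of all named genes, and of the 38 called members 20 were of this kind. For these genes the error in the test came from the background levels and limma's prior, not from the buds, and no SD is given for them. Besides, 25 of the 52 members with 1 probe set (48.1%) shared all 3 values, to 5 decimals, with at least 1 other probe set of the table, as did 35.5% of all probe sets. Tgfb2 and Smad6 held the same 3 values, which 91 probe sets had in common, and Gdf5 and Inha shared theirs among 89. A value that recurs in this way does not separate its gene from the others that hold it.

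**Figure D2:**
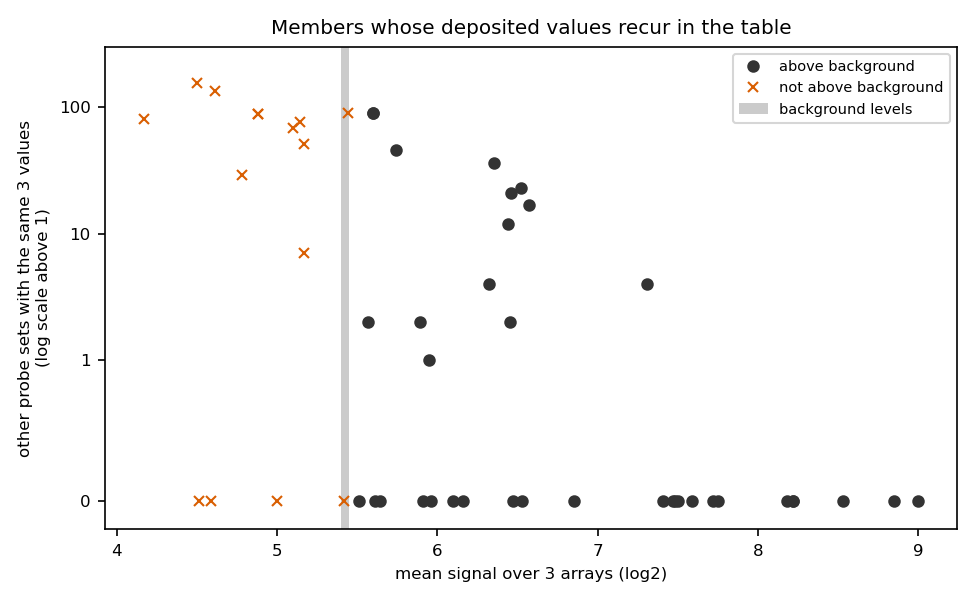
Mean signal over 3 arrays (log2, horizontal axis) against the number of other probe sets that hold the same 3 values (vertical axis, logarithmic above 1) for the 52 members with 1 probe set. Members with many such partners, up to 157 for Tgfb3, lie in the lower part of the signal range, and of the members over 7 log2 Bmp7 alone has any, with 4.

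Among the BMP ligands, Bmp4, Bmp5 and Bmp7 were above background. Bmp4, which in the mouse restrains budding and acts on ureter mesenchyme, was at 6.57 log2 on every array (limma, adjusted p = 6.78e-06), a triplet that 17 other probe sets also held. Bmp7, needed in the mouse to keep nephron progenitors, was at 7.31 log2 on every array (limma, adjusted p = 2e-06). Bmp5, a close relative of Bmp7, was at 7.31, 7.76 and 7.36 log2, or 7.48 ± 0.25 (SD, n = 3), and lay 2.06 log2 above background (limma, adjusted p = 7.34e-05). Array 2 held the highest value of Bmp5, and all 3 values lay over the background levels. Bmp6 was at 5.50, 5.51 and 5.51 log2, only 0.09 log2 above background (limma, adjusted p = 0.019), and 4.25% of olfactory receptor probe sets were at or above its mean. Bmp8b was at 5.57 log2 on every array (limma, adjusted p = 0.00386), and transcripts of its near-identical paralog Bmp8a, at 5.58 log2 on every array, may not be separated by these probes, so both calls are uncertain. Bmp2, a ligand closely related to Bmp4, was not above background at 4.57, 4.49 and 4.49 log2 (limma, adjusted p = 1), and neither was the atypical BMP Bmp3 at 5.14 log2 on every array. The calls of Bmp6 and Bmp8b did not hold without array 1 or without array 3, and that of Bmp6 also ended with a floor on the SD (limma, adjusted p = 0.08).

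Growth and differentiation factors were called in 3 of 6, where 53.0% of all named genes were called. Gdf11, which in the mouse is normally needed for the ureteric bud to form, was at 7.05, 6.75 and 6.75 log2, or 6.85 ± 0.17 (SD, n = 3; limma, adjusted p = 0.000163). Its highest value was on array 1, as for 13 of 18 bud markers, 5 of 53 members and 2444 of 19938 named genes. Its values on arrays 2 and 3 were the same. Gdf7 was at 6.44 log2 and Gdf3 at 5.64 log2 on every array (limma, adjusted p of 9.31e-06 and 0.0011). Gdf5 (4.88 log2 on every array), a cartilage and joint factor, and Gdf6 (4.53, 4.70 and 4.53 log2) were below the background level on every array. Gdf10, at 5.44 log2 on every array, lay within the span of the background levels and was not called (limma, adjusted p = 0.323), but it was without array 2 (adjusted p = 0.0325). Gdf3 lost its call without array 1 (limma, adjusted p = 0.104) and without array 3 (0.0946).

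In the activin, inhibin and TGF-beta branch, Inhba and Tgfb2 were called and both lay near the background level. Inhba, the subunit of activin A, was at 5.56, 5.63 and 5.63 log2, 0.19 log2 above background (limma, adjusted p = 0.00223). Tgfb2 was at 5.60 log2 on every array, 0.18 log2 above background (limma, adjusted p = 0.00209). Their calls were lost without array 1 (limma, adjusted p of 0.121 and 0.181) and without array 3 (0.184 and 0.168), which left 0 of 6 in this branch. Tgfb1, Tgfb3, Inhbb and the inhibin subunit Inha were at 5.00, 4.50, 4.78 and 4.88 log2, identical on all 3 arrays and not above background.

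The antagonists fell into a group above and a group below the background level. Noggin (Nog), chordin (Chrd), gremlin (Grem1) and Bmper, which bind BMPs outside the cell, had signals of 5.17, 5.17, 5.10 and 4.61 log2 with no difference between arrays, and all 4 failed the test (limma, adjusted p = 1 for each). Bambi, a pseudoreceptor that lacks the kinase domain and dampens signalling in the receiving cell, was at 7.40, 7.40 and 7.44 log2, or 7.41 ± 0.02 (SD, n = 3; limma, adjusted p = 2.43e-06). Follistatin (Fst) and its relative Fstl3, which bind activins, were above background at 5.91 and 6.53 log2 on every array (limma, adjusted p of 7.95e-05 and 7.35e-06). Bmp1, which is not a BMP but a secreted protease that cleaves chordin, was at 6.46 log2 on every array (limma, adjusted p = 8.77e-06). With the 90th percentile as background Nog, Chrd and Grem1 were called and Bmper was not, giving 7 of 8, where 63.7% of all named genes were called. Vomeronasal receptors as background gave 7 of 8 as well, with 65.0% of all named genes called. At the 99th percentile, where 35.3% of all named genes were called, Fst lay below the level and 3 of 8 remained. With keratin-associated proteins and beta-defensins, where 21.1% were called, 1 of 8 was above background, Bambi.

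Type I and type II receptors for BMPs, activins and TGF-beta were among the 10 of 12 receptors above background. The BMP type I receptor Bmpr1a was at 7.63, 7.78 and 7.01 log2, or 7.47 ± 0.41 (SD, n = 3), 2.05 ± 0.17 log2 (SE) above background (limma, adjusted p = 0.000474). Array 3 was the low one. With probe sets averaged per gene, the difference of 0.77 log2 between the highest and lowest array of Bmpr1a was the widest among the members. The other BMP type I receptor Bmpr1b was at 6.49, 6.46 and 6.46 log2, or 6.47 ± 0.02 (limma, adjusted p = 1.22e-05), and Acvr1, which also serves BMPs, at 6.45 log2 on every array (limma, adjusted p = 9.14e-06). The BMP type II receptor Bmpr2 was at 8.56, 8.46 and 8.56 log2, or 8.53 ± 0.06 (SD, n = 3; limma, adjusted p = 2.69e-06). Acvr2a and Acvr2b, the type II receptors of activins and several GDFs, were at 8.22 and 6.32 log2 on every array (limma, adjusted p of 9.38e-07 and 1.33e-05). No olfactory receptor probe set reached the mean of Bmpr2, Acvr2a or Tgfbr1.

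Acvr1b, the activin type I receptor, was at 6.01, 6.20 and 5.65 log2, or 5.96 ± 0.28 (SD, n = 3; limma, adjusted p = 0.0103). Like Bmpr1a it was highest on array 2 and lowest on array 3, and its call was lost without array 2 (adjusted p = 0.0823). The TGF-beta type I receptor Tgfbr1 was at 8.84, 8.87 and 8.84 log2, or 8.85 ± 0.02 (SD, n = 3; limma, adjusted p = 7.13e-07). Its type II partner Tgfbr2 and the co-receptor Tgfbr3 (betaglycan) were at 5.95 and 5.89 log2 on every array, 0.53 and 0.47 log2 above background (limma, adjusted p of 6.33e-05 and 9.38e-05). Acvr1c, a type I receptor for Nodal-like ligands, was at 4.17 log2 on every array and was not called. Acvrl1, a type I receptor of endothelial cells, was at 5.36, 5.36 and 5.54 log2 and was not above background (limma, adjusted p = 0.855). Acvrl1 exceeded the background level on array 3 only, the array on which 8 of 12 endothelial markers were highest. Those markers averaged 6.52, 5.82 and 6.84 log2 on arrays 1 to 3, and the part of endothelial cells in the Acvrl1 value was not tested. The co-receptor of Acvrl1 in endothelium, endoglin (Eng), was called at 5.49 log2 on every array (limma, adjusted p = 0.0444), and 52 other probe sets held the same values. The call of Eng was lost without array 1 (limma, adjusted p = 0.601), without array 3 (0.58), with the SD floor (0.154) and after quantile normalization (0.0547).

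**Figure D3:**
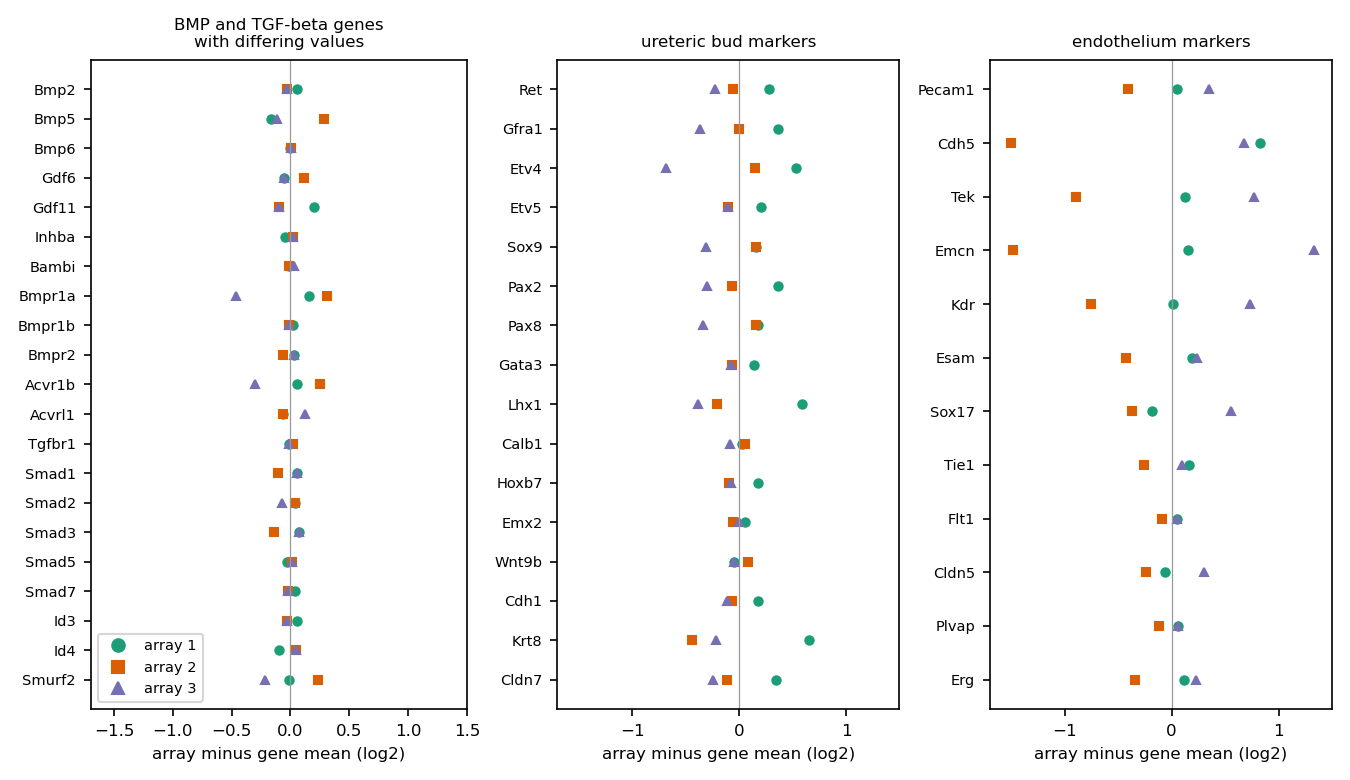
Each array's value minus the gene's mean over 3 arrays (log2, horizontal axis) for the 21 members whose values differ between arrays (left), bud markers (middle) and endothelial markers (right). Bmpr1a, Acvr1b and Smurf2 are highest on array 2 and lowest on array 3, and every endothelial marker is lowest on array 2.

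All 8 Smads were above background. Among the Smads of the BMP branch, Smad5 was at 7.69, 7.73 and 7.73 log2, or 7.72 ± 0.02 (SD, n = 3), and Smad1 at 6.21, 6.05 and 6.21 log2, or 6.16 ± 0.09 (limma, adjusted p of 1.22e-06 and 0.000366). Smad9, the remaining one of that branch, was at 5.74 log2 on every array (limma, adjusted p = 0.000309). In the TGF-beta and activin branch, Smad2 was at 9.03, 9.03 and 8.92 log2 (SD 0.06), and Smad3 at 7.57, 7.36 and 7.57 log2, or 7.50 ± 0.12 (SD, n = 3; limma, adjusted p of 1.06e-06 and 2.47e-05). Smad4 was at 8.18 log2 on every array (limma, adjusted p = 9.52e-07), so the Smads of both branches and their shared partner were called. The repeated values of Smad4 and Smad9 show no spread between buds, and 46 other probe sets held those of Smad9. The inhibitory Smad7, a feedback brake on the receptors, was at 6.14, 6.08 and 6.08 log2, or 6.10 ± 0.03 (SD, n = 3; limma, adjusted p = 6.26e-05). Smad6, the inhibitory Smad that acts mainly on the BMP branch, was at 5.60 log2 on every array (limma, adjusted p = 0.00209). The call of Smad6 was lost without array 1 (adjusted p = 0.181) and without array 3 (0.168). At the 99th percentile of olfactory receptors, 35.3% of all named genes were called. There, 4 of 8 Smads were called, namely Smad2, Smad3, Smad4 and Smad5, and 7 of 12 receptors.

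The Id genes encode inhibitors of basic helix-loop-helix transcription factors and are textbook targets of the BMP Smads. Id3 was at 8.28, 8.20 and 8.20 log2, or 8.22 ± 0.05 (SD, n = 3; limma, adjusted p = 2.22e-06). Id4 was at 7.65, 7.80 and 7.80 log2, or 7.75 ± 0.09 (SD, n = 3; limma, adjusted p = 3.58e-06). Id2 and Id1 were at 7.59 and 6.52 log2 on every array (limma, adjusted p of 1.49e-06 and 7.56e-06), and 23 other probe sets shared the values of Id1. All 4 were thus called, and the lowest and highest arrays of Id3 and Id4 differed by 0.09 and 0.15 log2. Smurf2, a ubiquitin ligase that removes Smads and receptors, was at 8.63, 8.87 and 8.42 log2, or 8.64 ± 0.22 (SD, n = 3; limma, adjusted p = 1.54e-05). It was the member with more than 1 probe set: the first gave 9.15, 9.64 and 8.74 log2 and the second 8.11 log2 on every array, so the difference between buds came from 1 of them. Smurf1, its relative, was at 6.35 log2 on every array (limma, adjusted p = 1.2e-05).

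Shown are the promoters of Id2, Id4 and Smad6, called members with a sequence element through which Smads are known to act. They were picked by name, and Bmpr2, Smad9, Tgfbr1, Smurf2, Smad5, Bmpr1a and Acvr1b, also called, hold such an element as well. Windows from 250 bases before to 50 bases after the start of the gene were taken from a table of RefSeq promoters (GRCm38.p6) that held one for 36 of the 53 members. Windows of the other members, Id1 among them, were not searched. The motifs searched were GGCGCC, the core of a GC-rich element bound by BMP Smads, and GTCTAGAC, the palindromic Smad-binding element; each reads the same on both strands and neither overlaps the other. GGCGCC occurred in 12 of the 36 members (33.3%) and in 11.9% of all 32851 windows, in which a gene can have several. Among the 12, Grem1, Gdf10 and Chrd were not above background and the others were. GTCTAGAC occurred in 1 of the 36 (2.78%), Smad6, and in 0.213% of all windows. The member shares count genes with the motif in any of their windows, and the other shares count single windows. They are unlike measures, and an excess among members was not tested. The bases before each start, extended in Smad6 to the end of the motif, run 5′ to 3′ on the strand of the gene, with the first motif in capitals. The Id2 stretch lies at chr12:25096093-25096342 on the minus strand, that of Id4 at chr13:48260866-48261115 on the plus strand and that of Smad6 at chr9:64022056-64022309 on the minus strand.
Id2: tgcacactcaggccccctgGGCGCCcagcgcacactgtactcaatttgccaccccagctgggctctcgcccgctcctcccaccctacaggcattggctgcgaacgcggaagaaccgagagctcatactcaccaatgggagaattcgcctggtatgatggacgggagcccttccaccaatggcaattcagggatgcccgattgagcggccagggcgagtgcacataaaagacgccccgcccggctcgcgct
Id4: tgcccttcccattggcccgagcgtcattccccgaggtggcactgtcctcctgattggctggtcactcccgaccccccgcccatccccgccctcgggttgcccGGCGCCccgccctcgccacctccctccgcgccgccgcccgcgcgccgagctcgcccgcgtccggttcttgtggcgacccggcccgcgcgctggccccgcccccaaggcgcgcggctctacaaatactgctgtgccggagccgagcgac
Smad6: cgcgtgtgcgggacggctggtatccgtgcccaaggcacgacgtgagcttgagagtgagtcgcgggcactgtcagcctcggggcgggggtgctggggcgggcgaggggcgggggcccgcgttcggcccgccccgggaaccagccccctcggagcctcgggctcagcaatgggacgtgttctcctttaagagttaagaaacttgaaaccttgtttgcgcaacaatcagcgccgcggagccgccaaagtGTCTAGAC
The motif begins 231 bases upstream of the start in Id2, 148 in Id4 and 4 in Smad6, where it reaches across the start. A match describes the letters of the window and was not tested as a binding site in these cells.

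Differences between buds in these genes are a description, since each array is 1 bud. Of the 53 members, 2 (3.77%), Bmpr1a and Acvr1b, differed by more than 0.5 log2 between their highest and lowest array, compared with 8.38% of all named genes. Before averaging, the first probe set of Smurf2 (9.15, 9.64 and 8.74 log2) spanned more than either. Its second probe set was at 8.11 log2 on every array. Among genes whose values differ at all, the median SD was 0.064 log2 over 21 members and 0.102 log2 over all such named genes. Of these 21, all but Bmp5, Inhba, Bmpr1a, Acvr1b and Smurf2 held the same value on 2 of 3 arrays. Their SD therefore rests on 1 departing array. Array 2 held the sole highest value of 6 members, array 1 of 5 and array 3 of 3, so no array was high or low throughout. For Bmpr1a, Acvr1b and Smurf2 the order was array 2 over array 1 over array 3. Bud markers did not share that order: their average was highest on array 1 and lowest on array 3 (8.24, 7.97 and 7.80 log2 on arrays 1 to 3). Endothelial markers ran in the reverse order, with averages of 6.52, 5.82 and 6.84 log2. The part of either cell type in these differences was not tested.

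Genes of the pathway outside the 53 members were above background in 41 of 67, or 61.2%, beside 53.0% of all named genes, and the counts by role below are to be read against that share. Of other ligands 2 of 12 were called, Nodal at 5.99, 6.09 and 5.91 log2 (SD 0.09, n = 3; limma, adjusted p = 0.000158), and Bmp8a, whose call was lost without array 1 or array 3 (limma, adjusted p of 0.251 and 0.234), while the Nodal antagonists Lefty1 (4.79 log2 on every array) and Lefty2 (4.10, 4.30 and 4.42 log2) and the muscle growth inhibitor Mstn (4.15 log2 on every array) were not. Of other extracellular regulators 11 of 19 were called. Crim1, a transmembrane protein that binds BMPs, was at 6.17 log2 on every array, and Twsg1, a BMP-binding partner of chordin, at 7.37 log2 on every array (limma, adjusted p of 2.22e-05 and 1.86e-06). Kcp, a kidney enhancer of BMP signalling, was at 5.89, 5.76 and 5.81 log2 (limma, adjusted p = 0.00132), and Chrdl1, a chordin relative, was not above background at 5.21 log2. Of co-receptors and other receptors 3 of 5 were called, Eng and the BMP co-receptors Rgma at 6.42 ± 0.06 log2 (SD, n = 3) and Rgmb at 6.18 log2 on every array, while the Nodal co-receptor Tdgf1 (4.88 log2) and the anti-Müllerian hormone receptor Amhr2 (5.23 log2) were not.

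Smad partners and regulators were called in 18 of 22, among them the corepressors Ski (6.82 log2 on every array), Skil (6.77 ± 0.03 log2), Tgif1 (8.52 log2 on every array) and Tgif2 (7.61 ± 0.10 log2; SD, n = 3). The transcription factors Zeb1, Zeb2 (5.14 log2 on every array), Foxh1 (4.61 log2 on every array) and Runx3 (5.01, 4.88 and 5.04 log2) were not called. Zeb1, a repressor of epithelial genes, was at 5.14, 5.14 and 6.31 log2 and exceeded the background level on array 3 only (limma, adjusted p = 0.652). Endothelial markers averaged 6.52, 5.82 and 6.84 log2 on arrays 1 to 3, and their part in the Zeb1 value was not tested. Of other target genes 7 of 9 were called, among them Msx1 at 6.02, 6.02 and 6.07 log2 (limma, adjusted p = 7.3e-05), Hey1 at 5.61 log2 and Atoh8 at 5.69 log2 on every array (limma, adjusted p of 0.00183 and 0.000574). The call of Hey1 was lost without array 1 (limma, adjusted p = 0.164) and without array 3 (0.151). Msx2, a target of BMP signalling in many tissues, was at 4.61 log2 on every array, and Cdkn2b, a cell cycle inhibitor induced by TGF-beta, was at 5.43, 5.40 and 5.40 log2; neither was above background.

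**Figure D4:**
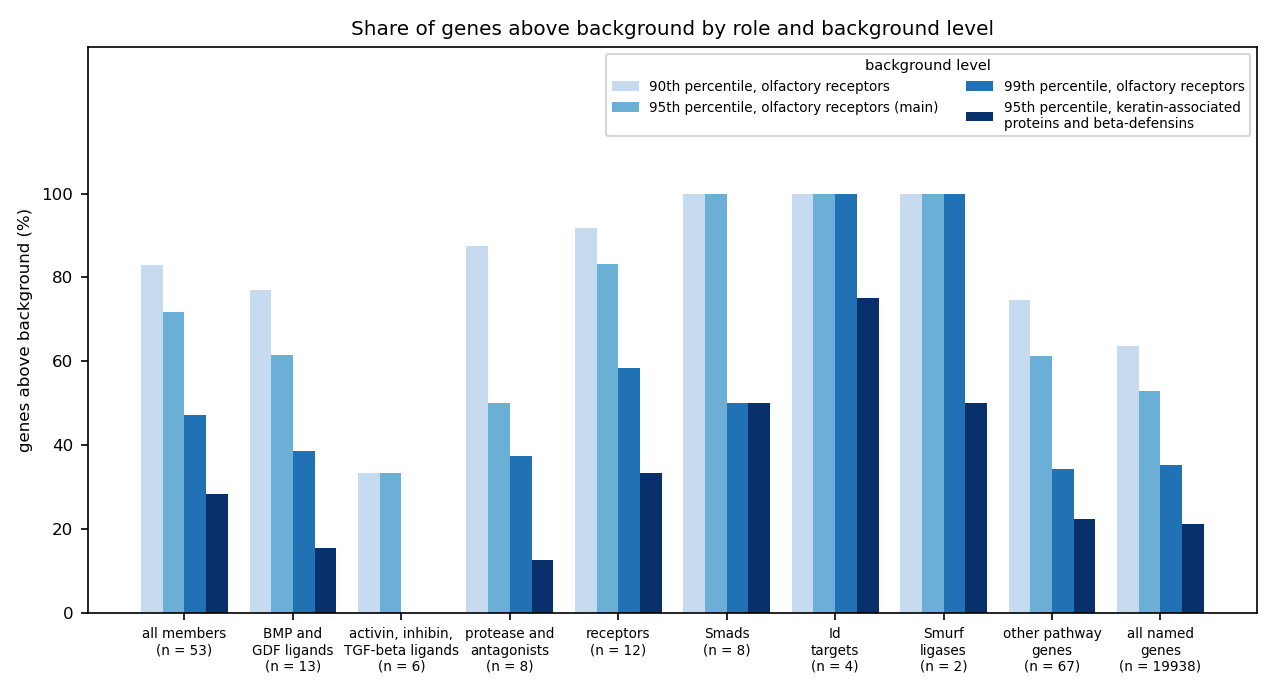
Percent of measured genes above background (vertical axis) for all members, each role, the other pathway genes and all named genes, at 4 background levels; n is the number of genes measured. At every level the share of all members is above that of all named genes, and the activin, inhibin and TGF-beta ligands reach 0% at both higher levels.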

How the data were processed

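Affymetrix arrays measured RNA of 3 samples, with values deposited by the authors as 1 log2 number per probe set and array. Per the submitters' processing notes the tool was Affymetrix Expression Console; its version, background correction, normalization and summarization were not given in sources used here. The log base was inferred from the range of the values. Column medians were 5.47, 5.50 and 5.48 log2, and values were used as deposited.

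Of 35557 probe sets, 21789 named 1 gene in the platform annotation, 1621 several and 12147 none; probe sets with several or none were left out. Probe sets of a gene were averaged. All 53 member symbols matched RefSeq (GRCm38.p6) by gene ID. With limma 3.58.1 (R 4.3.3), value minus background level (95th percentile of 1035 olfactory receptor probe sets) was fitted over all 19938 genes, with a one-sided moderated test and Benjamini-Hochberg adjustment at 0.05. Prior degrees of freedom were 1.71 and the prior SD 0.05 log2. The procedure was checked on simulated data, in which every gene varied between arrays, so genes with identical values were not covered. Genes named beyond the members were the first 4 measured of each list and, in pathway lists, the smaller side of a call where it had 5 or fewer; further called markers are named in the report as chosen later. Members and lists were chosen with earlier results of these data known. The 12 alternatives are in the closing section.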

Additional observations from a re-analysis of the deposited data

How the results depend on the processing

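No paired analysis was possible because the samples form 1 group. The background level decided most counts. At the 99th percentile of olfactory receptors, 7034 named genes, 25 of 53 members, 5 BMP and GDF ligands, 0 activin, inhibin and TGF-beta ligands, 4 Smads and 23 other pathway genes were called. With a background of beta-defensins and keratin-associated proteins (levels of 6.82 to 6.91 log2), where 21.1% of named genes passed, the counts were 4210 named genes, 15 members, 2 BMP and GDF ligands, 0 of the activin branch, 1 antagonist, 4 receptors, 4 Smads, 1 Smurf ligase and 15 other pathway genes. In these settings 11 and 23 members called in the report had means of -0.56 to -0.11 and -1.36 to -0.02 log2 relative to the level (limma, adjusted p = 1 for each). The same loss with a mean below the level met 26 and 47 of the 125 other listed genes. The protease and antagonist count was 7 with vomeronasal receptors as background and 7 at the 90th percentile. Leaving out 1 array gave 9666 to 10526 named genes, 32 to 38 members, 5 to 9 BMP and GDF ligands, 0 to 2 of the activin branch and 35 to 41 other pathway genes; limma used 1 pooled SD without array 1 or array 3 and each gene's own spread, with a weak prior, without array 2. Bmp5, Bmp7, Bambi, Bmpr1a, Bmpr2, Acvr2a, Tgfbr1, Smad2, Smad3, Smad4, Smad5, Id2, Id3, Id4 and Smurf2 were called in the report and in all 12 alternatives. Bmp2, Gdf5, Gdf6, Inha, Inhbb, Tgfb1, Tgfb3, Bmper and Acvr1c were called in none. Taking the probe set of the highest mean, quantile normalization and counting genes above the level on all 3 arrays changed no member's call, nor did leaving out the lowest 25% of probe sets, which removed 1 member and called 65.0% of named genes. The members' median SD was 0.000 log2 as deposited, 0.027 after quantile normalization and 0.064 without identical genes.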
